A study of Mus musculus with 36 samples.

Results

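Esp4, Esp18, Mup4, Mup5 and Mup6, 5 genes of 2 families that encode secreted chemical signals of the mouse, were followed through single-cell and bulk RNA data of the submandibular gland. They are 5 of the 29219 genes that had at least 1 unique molecular identifier (UMI, a tag that marks 1 captured transcript) in the 26 Drop-seq libraries, and were chosen by name as the pheromone-related genes of the Esp and Mup families. Each Drop-seq library held the cells of 1 gland. Control mice carried the K14-Cre transgene and an EYFP reporter that Cre switches on. In double-mutant mice these were joined by a beta-catenin gain-of-function (GOF) allele and Bmpr1a loss-of-function (LOF) alleles. Both kinds had the reporter and a Cre driven by the keratin 14 promoter, which is active in basal epithelial cells, on a C57BL/6 background, and double-mutant mice develop salivary gland tumors. Controls gave 6 glands on postnatal day 40 (P40) and 6 on P90, and double mutants gave 7 on each of these days. Every group held glands of both sexes. RNA was also measured by CITE-seq in 4 glands on P70, 2 of each genotype, and by bulk RNA-seq in 1 female control gland on P70 and 1 female double-mutant gland on P100.

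Exocrine gland-secreting peptides (ESPs) are small peptides released into tears and saliva and sensed through receptors of the vomeronasal organ. Major urinary proteins (MUPs) are lipocalins, barrel-shaped carriers that bind small volatile pheromones. Most MUPs are made in the liver and excreted in urine, but some Mup genes are used in lacrimal, nasal and salivary glands. Each family sits in a cluster of closely related genes, so transcripts of one member may resemble those of another.

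In the mouse build GRCm38, Esp18 lies at chr17:39406359-39410992 and Esp4 at chr17:40598594-40602618, both on the plus strand with 3 exons. Between them are 1187601 bases. Mup4 lies at chr4:59956804-59960710 on the minus strand with 7 exons, and Mup6 begins 3583 bases after it at chr4:59964294-60007274 on the plus strand, with 3 annotated transcripts of 6 to 7 exons. Mup5 stands apart at chr4:61831319-61835233 on the minus strand, 1824044 bases beyond Mup6, with 7 exons. All 5 are annotated as protein-coding. The deposited tables name genes by symbol, so reads from near-identical copies could be split or lost. Over the last 500 bases of the transcripts, where Drop-seq reads begin, windows of 50 bases shared with another gene were counted. Esp4 shared 0 of 451, Esp18 42 of 451 (with AC192777.2 and Esp16) and Mup6 27 of 726. Mup4 shared 74 of 451 (with Mup5 and others) and Mup5 131 of 451 (with Mup4 and others). Values of Mup5 and Mup4 are the least certain for that reason.

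The stretches just before the gene starts are shown because Mup4 and Mup6 were highest in the same cells, described further on, and Esp18 in others. Each holds the 250 bases before the RefSeq start in GRCm38.p6, 5′ to 3′ on the gene's strand, at chr4:59960668-59960917 for Mup4, chr4:60003231-60003480 for Mup6 and chr17:39406109-39406358 for Esp18. The RefSeq starts of Mup4 and Mup6 lie inside the gene spans given above, which come from another annotation, so that the Mup6 stretch is within its longest annotated span. Capitals mark the letters TATATAA, a form of the TATA box, the element that positions the start of transcription.
Mup4: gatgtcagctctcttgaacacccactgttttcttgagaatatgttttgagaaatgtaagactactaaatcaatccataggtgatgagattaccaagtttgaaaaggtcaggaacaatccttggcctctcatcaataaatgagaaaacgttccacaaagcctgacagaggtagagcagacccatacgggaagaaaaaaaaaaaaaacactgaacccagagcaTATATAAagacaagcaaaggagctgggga
Mup6: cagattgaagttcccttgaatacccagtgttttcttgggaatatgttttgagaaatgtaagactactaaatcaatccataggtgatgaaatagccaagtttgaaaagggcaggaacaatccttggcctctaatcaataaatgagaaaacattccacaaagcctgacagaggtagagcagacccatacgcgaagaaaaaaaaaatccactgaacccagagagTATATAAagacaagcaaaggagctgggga
Esp18: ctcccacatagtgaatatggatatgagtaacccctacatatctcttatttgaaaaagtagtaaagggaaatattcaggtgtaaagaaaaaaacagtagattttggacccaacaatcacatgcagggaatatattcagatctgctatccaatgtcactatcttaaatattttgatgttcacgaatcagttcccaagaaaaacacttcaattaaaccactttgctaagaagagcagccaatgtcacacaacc
The Mup4 and Mup6 stretches were identical at 229 of 252 aligned positions (90.87%), against 75.65% between Mup4 and Mup3 and 43.89% between Mup4 and Dcpp1, a gene of the cells in which both were highest. In both, TATATAA begins 29 bases before the start. On the gene's own strand it was found in 11 of 14 Mup promoters, 0 of 13 Esp promoters, 0 of 3 Dcpp promoters and 2.055% of all 32851 promoters of the same length, and on either strand in 3.038% of all. A match of letters is a description and says nothing of what binds there.

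After the limits of at least 100 genes and under 15% mitochondrial UMIs, 23346 cells were left, with 650301 to 6994504 UMIs and 606 to 1209 cells a gland. The median of the glands' median UMIs per cell was 1718 in controls and 1097 in double mutants. No pair of the 325 pairs of libraries shared more than 1 cell barcode. The 2 libraries of 1 batch, double-mutant P40 gland 1 and double-mutant P90 gland 5, went against their sex labels by Xist and Y-linked UMIs. They were used under their labels and left out in turn as an alternative. Among controls every P90 gland came from other batches than every P40 gland, which leaves batch and stage confounded there. Levels are given as counts-per-million (CPM) values, here UMIs over all UMIs of the cells summed, which count transcript ends and do not allow levels of different genes to be compared per length. Glands were the replicates in all tests.

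All 5 genes were found, at very different prevalence. Esp4 had 1110 UMIs in 607 cells (2.6% of cells), Esp18 2576 UMIs in 840 cells (3.60%), Mup6 3439 UMIs in 1099 cells (4.71%), Mup4 12952 UMIs in 1249 cells (5.35%) and Mup5 71214 UMIs in 3804 cells (16.3%). Together the 3 Mup genes held 99.7% of the UMIs of the Mup family, and the 2 Esp genes 62.3% of those of the Esp family, where Esp8 had 1955 UMIs and Esp15 had 237.

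Esp4 was detected in every gland. In controls its lowest, median and highest levels were 5.22, 9.48 and 23.7 CPM at P40 and 7.74, 26.3 and 40.7 CPM at P90. In double mutants they were 10.2, 18.1 and 22.3 CPM at P40 and 6.36, 9.34 and 34.2 CPM at P90. Control glands at P90 were the highest as a group, and every pair of groups overlapped.

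Esp18 varied more between glands of 1 group than Esp4 did. Control glands spanned 6.49 to 82.8 CPM (median 30.2) at P40 and 5.36 to 147 CPM (median 40.4) at P90. Double-mutant glands spanned 9.23 to 49.8 CPM (median 36.4) at P40 and 0 to 60.0 CPM (median 37.3) at P90, where the 0 UMIs of gland 4 allow up to 3.74 CPM. The group medians were close, and the widest spread was among control glands at P90.

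Mup4 was abundant in some glands and nearly missing in others, with levels in between in double mutants at P90. The 6 control glands at P40 had 2.15, 271, 563, 173, 4.59 and 571 CPM in the order of their numbers, and the 6 at P90 had 18.8, 7.05, 388, 1.43, 16.4 and 6.32. The 7 double-mutant glands at P40 had 3.60, 185, 250, 117, 0 (which allows up to 4.61), 286 and 170 CPM, and the 7 at P90 had 5.04, 2.28, 123, 97.2, 14.5, 140 and 37.7. Every group held low and high glands, and among P90 controls only gland 3 was high. Mup6 took a similar course, with 2.15 to 141 CPM (median 84.8) and 0.575 to 46.4 CPM (median 3.82) in P40 and P90 controls, and 0 to 75.0 CPM (median 52.6) and 0 to 49.9 CPM (median 15.8) in P40 and P90 double mutants.

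Mup5 had the most UMIs of the 5. P40 and P90 controls had 204 to 955 CPM (median 586) and 16.2 to 749 CPM (median 269). P40 double mutants had 11.2 to 972 CPM (median 275). The 7 double-mutant glands at P90 had 3469, 195, 84.6, 1604, 41.9, 44.3 and 8192 CPM, so that 3 of them lay above every control gland and the other 4 below 10 of the 12 control glands. Gland 7 alone held 45.2% of all Mup5 UMIs and the top 2 glands 62.6%.

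**Figure D1:**
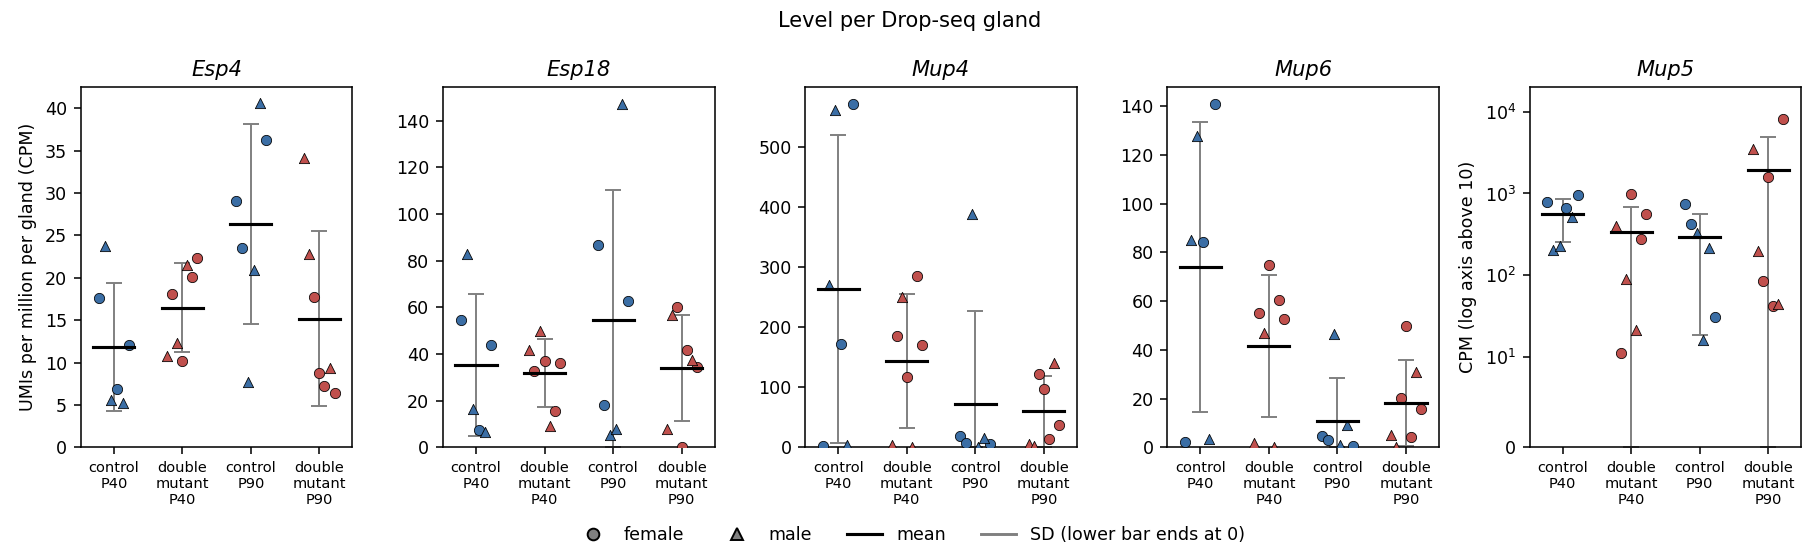
Level of each gene per Drop-seq gland in CPM, by genotype and stage, with circles for glands labelled female and triangles for glands labelled male; black lines are group means and grey bars SD. The Mup5 axis is logarithmic above 10 CPM. Every pair of groups overlaps for each gene, Mup4 and Mup6 vary widely between the glands of each group, and double-mutant P90 gland 7 stands at 8192 CPM for Mup5.

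Cells were grouped with every Esp and Mup gene held out, and groups were named "-like" from fixed marker lists or, failing that, called by their leading genes. Levels across these populations are a description, since the populations differ by construction. A UMI can also come from RNA released by other cells, so the shares in immune-like, T/NK-like and endothelial-like cells, none of which is expected to make these proteins, are given as the background. Intervals on shares of cells are 95% Clopper-Pearson intervals, and they cover counting error only.

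Esp4 was highest in a small unnamed population led by Slc13a2, a dicarboxylate transporter, and Clic6, a chloride channel protein. Of its 460 cells, 30.7% (95% interval 26.5 to 35.1) had an Esp4 UMI, at 606 CPM and 2.71 UMIs per positive cell. The background was 0.764% of 2617 immune-like, 0.628% of 478 T/NK-like and 0.978% of 1022 endothelial-like cells, with median depths of 638, 612 and 728 UMIs against 997 in the Slc13a2-led cells. The next populations were ductal Smgc+-like cells, of the female intercalated duct, at 117 CPM (9.52% of 189 cells), an unnamed cluster led by Gm24245 at 51.1 CPM (4.61% of 803 cells) and luminal Clu+-like cells, which were 93.3% from double mutants, at 34.5 CPM. The Slc13a2-led, ductal Smgc+-like and luminal Clu+-like cells were split, after the data were seen, from 1 cluster of 1216 cells led by Ltf and Clu. Esp4 stood at 238 CPM in that cluster, which was chosen for the split because its Esp4 level was the highest. Over 4 alternatives, other clusterings among them, the highest Esp4 level of a population ran from 81.6 to 481 CPM. No other cluster was split, and the Esp4 level of its parts is not independent of that choice. The Slc13a2-led cells held 34.4% of all Esp4 UMIs.

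Esp18 was highest in basal-like cells, the Krt14- and Krt5-positive cells at the base of the duct. Of 580 basal-like cells, 44.8% (40.7 to 49.0) had an Esp18 UMI, at 954 CPM and 2.50 UMIs per positive cell. The Slc13a2-led cells followed at 869 CPM, in fewer cells (18.9%, 15.4 to 22.8) but with 6.30 UMIs per positive cell. Ductal Klk1+-like cells of the striated duct stood at 180 CPM (7.63% of 2294 cells), ductal progenitor-like cells at 139 CPM (6.94% of 908) and immune-like cells, as background, at 14.6 CPM (0.994%). Basal-like, ductal Klk1+-like and Slc13a2-led cells held 25.2%, 24.2% and 21.3% of all Esp18 UMIs, so that no population held most of them. The 580 basal-like cells were 41.2% from double mutants, and 1019 myoepithelial-like cells 84.1%. At a clustering resolution of 0.7 these names covered 1378 cells (72.7% from double mutants) and 230 cells (44.35%). The basal-like cells here may thus leave out part of the basal cells of double mutants. Over 4 alternatives the highest Esp18 level of a population ran from 525 to 1002 CPM.

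Both Esp genes were found in the Slc13a2-led cells. Of their 141 Esp4-positive cells, 43 (30.5%) also had an Esp18 UMI, against 13.8% of their Esp4-negative cells, and Esp4-positive cells were also deeper, with a median of 1263 against 955 UMIs. These 43 cells were 49.4% of their 87 Esp18-positive cells. In basal-like cells, by contrast, 260 cells had an Esp18 UMI, 6 had an Esp4 UMI and 5 had both.

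Mup4 and Mup6 were highest in luminal Dcpp1+-like cells, which carry the demilune and parotid cell protein genes Dcpp1, Dcpp2 and Dcpp3. Of 1071 such cells, 54.9% (51.9 to 57.9) had a Mup4 UMI, at 1570 CPM, 16.9 UMIs per positive cell and up to 318 in 1 cell. Mup6 was found in 62.0% (59.0 to 64.9) of them, at 411 CPM and 3.92 UMIs per positive cell. They held 76.8% of all Mup4 UMIs and 75.7% of all Mup6 UMIs. Both genes were found together in 429 cells, which are 73.0% of the 588 Mup4-positive and 64.6% of the 664 Mup6-positive cells. In endothelial-like cells, 2.45% had a Mup4 UMI and 1.66% a Mup6 UMI, and 74.0% of those Mup4 UMIs came from 1 gland.

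Luminal Muc19+-like cells, which carry the gel-forming mucin Muc19, came next, at 506 CPM of Mup4 and 145 CPM of Mup6. Only 8.80% and 8.97% of their 591 cells had a UMI of the one or the other. In the 52 control cells of this group with a Mup4 or Mup6 UMI the luminal Dcpp1+ markers summed to 636889 CPM, against 121668 CPM in the 124 without. In double mutants the same sums were 538864 CPM in 22 cells and 54948 CPM in 393 cells. Cells with a Mup UMI thus held a larger share of Dcpp RNA. They were also deeper, with median UMIs of 7265.5 against 1572.5 in controls and 4582.5 against 1094 in double mutants. Their Muc19 level was lower, at 3021 against 14387 CPM in controls and 4016 against 38238 CPM in double mutants. Over the whole group, Mup4 stood at 965 CPM in the 176 control cells and 85.4 CPM in the 415 double-mutant cells. By gland with at least 10 such cells, it ran from 251 to 2021 CPM in 5 control glands, 4 of them at P40. In 9 double-mutant glands it ran from 0 to 169 CPM. No test was made. When the Esp and Mup genes were kept in the clustering, Mup4 was at 6.68 CPM in luminal Muc19+-like cells. That clustering can move cells by their Mup UMIs themselves, so nothing is read from the low value.

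Mup5 was spread over acinar-like cells, the Aqp5- and Prol1-positive cells that make the watery secretion, and several unnamed clusters. Of these, the clusters led by Lrg1 and by Gm12873 carried the acinar markers Prol1, Pip and Lpo, but not among their leading genes. The Gcnt1-led cluster best matched the luminal Dcpp1+ markers, and the Mucl1-led cluster carried 3 markers of no list. Of 3936 acinar-like cells, 41.2% (39.7 to 42.8) had a Mup5 UMI, at 1329 CPM, 20.8 UMIs per positive cell and up to 1210 in 1 cell, and they held 47.4% of all Mup5 UMIs. The pooled level was 4342 CPM in 242 cells led by Gcnt1, of which 94.1% of the UMIs came from 1 gland, and 1771, 1716 and 1656 CPM in the clusters led by Lrg1, by Gm12873 and by Mucl1. In luminal Dcpp1+-like cells, where Mup4 and Mup6 peaked, 7.84% had a Mup5 UMI, against 7.24% of the shallower endothelial-like cells, with median depths of 4747 and 728 UMIs. Its background was wide, with 168 CPM in immune-like and 697 CPM in endothelial-like cells. Genes whose level over 26 populations followed Mup5 most closely were Spt1, Scgb2b26 and Oit1 (Pearson r of log2(pooled CPM + 1) 0.94, 0.94 and 0.94), which are acinar secretory genes, while those of Mup4 were Mup6, Bpifa2 and Cst10 (0.90, 0.86 and 0.85). Populations share libraries and differ in depth, so these are given without a test.

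**Figure D2:**
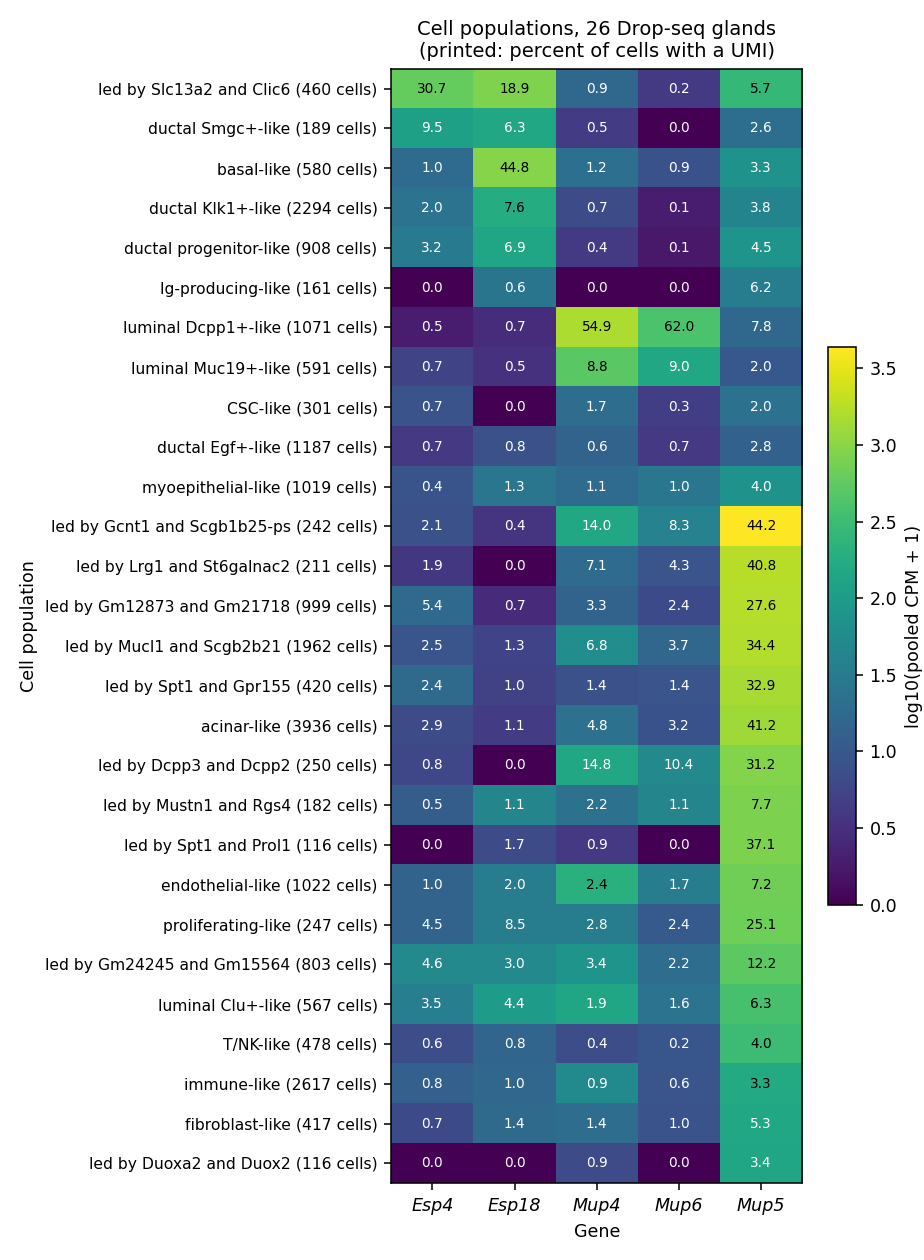
Pooled level (color, log10(CPM + 1)) and percent of cells with a UMI (printed) of the 5 genes in 28 cell populations of the 26 Drop-seq glands, the cluster led by Ltf and Clu being shown split. Esp4 peaks in the Slc13a2-led cells (30.7%), Esp18 in basal-like cells (44.8%), Mup4 and Mup6 in luminal Dcpp1+-like cells (54.9% and 62.0%) and Mup5 in acinar-like cells (41.2%) and unnamed clusters.

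Shares depend on depth. With every cell thinned to 500 UMIs, the Slc13a2-led cells had an Esp4 UMI in 22.8%, basal-like cells an Esp18 UMI in 32.1%, luminal Dcpp1+-like cells a Mup4 UMI in 27.1% and a Mup6 UMI in 12.3%, and acinar-like cells a Mup5 UMI in 17.2%. The 2 shares of luminal Dcpp1+-like cells changed order, so that no order is read from them.

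The high and low glands of Mup4 and Mup6 followed the Dcpp-positive cells. The 12 glands with at least 10 luminal Dcpp1+-like cells, 5 of them control glands, had 97.2 to 571 CPM of Mup4 (median 218), and the 14 glands with fewer had 0 to 123 CPM (median 5.68). In the 12 glands, luminal Dcpp1+-like cells held 6.41 to 90.5% of the Mup4 UMIs. The luminal Dcpp1+ markers summed to between 29.4 and 223022 CPM in single glands, and the luminal Muc19+ markers to between 48.0 and 6909 CPM. The paper stained Muc19-positive cells in the sublingual gland, which borders the submandibular gland. Carry-over of sublingual tissue was not tested. Of 10488 genes, those closest to Mup4 over the 26 glands were Dcpp1 (Spearman rho 0.92), Mup6 (0.91) and Dcpp2 (0.89), and those closest to Mup6 were Mup4 (0.91), Kcne1 (0.91) and Dcpp3 (0.89). Since the glands fall into a Dcpp-rich and a Dcpp-poor set, these values describe that split and carry no test. In the 15 glands with at least 20 Mup6 UMIs, there were between 1.38 and 8.36 Mup4 UMIs for each Mup6 UMI (median 3.24).

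**Figure D3:**
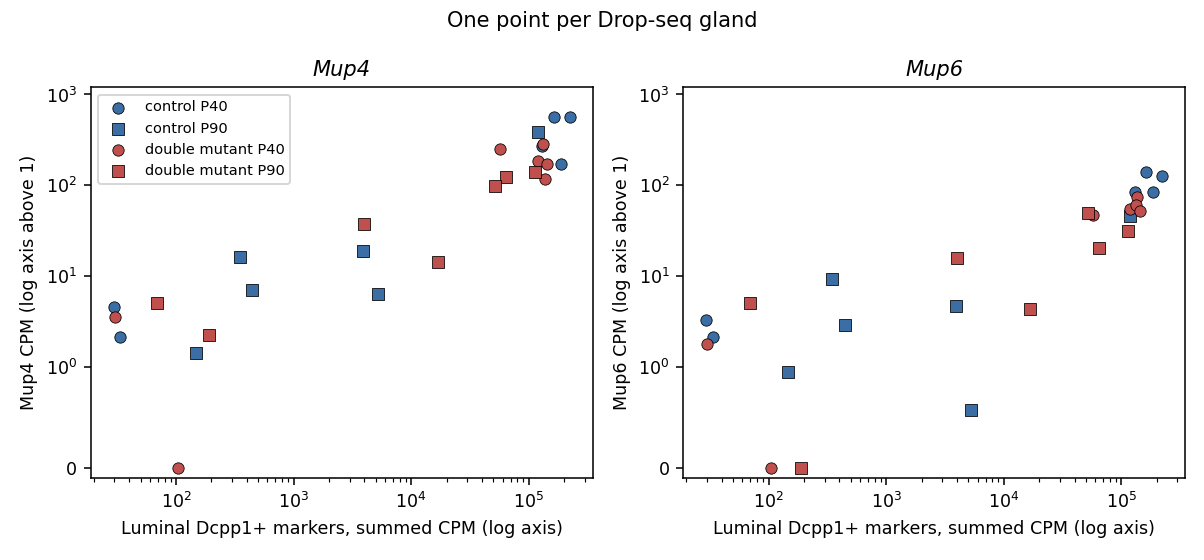
Mup4 and Mup6 CPM against the summed CPM of the luminal Dcpp1+ markers (Dcpp1, Dcpp2, Dcpp3 and Pglyrp1), 1 point per Drop-seq gland, on logarithmic axes (linear below 1 CPM for the Mup genes). The 12 glands with at least 10 luminal Dcpp1+-like cells hold 97.2 to 571 CPM of Mup4, and control P90 gland 3, at 388 CPM, sits among the Dcpp-rich glands.

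The other genes had looser companions over the glands. Mup5 was closest to Mup-ps22, an annotated Mup pseudogene (0.81), and next to Fam213a (0.60). Of the 194 windows of 50 bases of Mup-ps22, 14 were shared with other Mup genes. Esp18 was closest to Hepacam2, a marker of the ductal progenitor-like cells (0.79), and Esp4 to Smim4 (0.72). Esp4 and Esp18 had a rho of 0.49 with each other.

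The genotype comparison asks whether the tumor-bearing gland as a whole held more or less of each transcript. In whole glands, fewer cells of a type and less RNA per cell cannot be told apart. Over all 26 glands with sex and stage as covariates, 0 of the 5 genes passed at an adjusted p of 0.05 in the quasi-likelihood test of edgeR (Benjamini-Hochberg over 10488 genes), where 22.0% of all genes tested passed. Esp4 had a log2 fold change of −0.60 (standard error 0.30, edgeR adjusted p = 0.145). Esp18 had a log2 fold change of −0.81 (standard error 0.48, edgeR adjusted p = 0.218), Mup4 of −1.16 (0.94, edgeR adjusted p = 0.372), Mup6 of −0.88 (0.76, edgeR adjusted p = 0.410) and Mup5 of 0.50 (1.10, edgeR adjusted p = 0.775). The Mup5 value turned to −0.83 within the batches that held both genotypes. The median over all genes was 0.02. The standard errors of the Mup genes came close to 1 log2 unit, so that a difference of 1 log2 unit in whole glands was not detectable for them.

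Within a stage the picture was similar. At P40 none of the 5 genes passed (0 of 5, against 0.255% of 10213 genes), and the largest log2 fold changes were −1.67 for Mup6 (standard error 0.93, edgeR adjusted p = 0.273), −1.55 for Mup4 (1.17, edgeR adjusted p = 0.407) and −1.505 for Mup5 (0.77, edgeR adjusted p = 0.241). At P90 also 0 of 5 passed, against 4.90% of 9094 genes, and Esp4 alone had an unadjusted p under 0.05. Esp4 stood at 15.2 ± 10.3 CPM (SD, n = 7) in double mutants and 26.3 ± 11.8 CPM (SD, n = 6) in controls at P90, and its log2 fold change was −1.23 (standard error 0.43, edgeR adjusted p = 0.104). The exact permutation test of the means, two-sided, gave p = 0.0967. Mup5 at P90 had a log2 fold change of 2.79 (standard error 1.39, edgeR adjusted p = 0.240), with means of 1947 ± 3034 and 293 ± 275 CPM, the SD of the double mutants being larger than their mean.

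The stage comparison asks how the genes moved as the glands matured from P40 to P90. In controls, where stage and batch cannot be told apart, 0 of 5 passed, against 10.9% of 9099 genes. Mup6 fell short of the threshold at a log2 fold change of −3.49 (standard error 1.09, edgeR adjusted p = 0.0569), with 74.0 ± 59.6 CPM at P40 and 10.8 ± 17.7 CPM at P90 (SD, n = 6 each, exact permutation p = 0.0411). The cells that held most Mup4 and Mup6 moved with stage, as at least 10 luminal Dcpp1+-like cells were found in 4 of 6 P40 and 1 of 6 P90 control glands, and luminal Muc19+-like cells made up to 5.30% and 2.49% of a gland. Their part in the difference was not tested. Mup6 passed in edgeR with control P40 gland 1, 2 or 5 or control P90 gland 3 left out, and in DESeq2. Mup4 had a log2 fold change of −3.10 (standard error 1.498, edgeR adjusted p = 0.239), which became −5.26 (edgeR adjusted p = 0.0137) without control P90 gland 3. Esp4 was at 11.9 ± 7.51 CPM at P40 and 26.3 ± 11.8 CPM at P90 (log2 fold change 0.91, standard error 0.34, edgeR adjusted p = 0.113, exact permutation p = 0.0346). Without control P40 gland 2 or control P90 gland 3 Esp4 passed, with an edgeR adjusted p of 0.0290 at its lowest. Mup5 (−1.34, standard error 0.66) and Esp18 (0.43, standard error 0.70) did not pass either.

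In double mutants the stage comparison called 0 of 5 genes and 0.00% of 9857 genes. Mup5 had the largest difference there, 2.94 on the log2 scale (standard error 1.34, unadjusted p = 0.0442, edgeR adjusted p = 0.837). Whether stage differed by genotype was tested by the interaction term, which called 0 of 5 genes and 0.00876% of 11420 genes. It was 4.27 for Mup5 (standard error 1.62, unadjusted p = 0.0137, edgeR adjusted p = 0.767) and −1.11 for Esp4 (standard error 0.57, edgeR adjusted p = 0.904).

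Pheromone genes and the mouse submandibular gland are known for differences between the sexes, and the glands showed them in the granular duct genes. Egf had a mean of 107 ± 60.2 CPM in female and 2227 ± 1654 CPM in male control glands (SD, n = 6 each), and the kallikrein Klk1b22 had 647 ± 527 and 5487 ± 5192 CPM. Of the 5 genes, 0 passed between the sexes in controls (1.0% of 9099 genes passed), in double mutants (0.00% of 9857) or in the interaction of genotype and sex (0.00% of 11420). In controls the log2 difference, male minus female, was 2.06 for Mup4 (standard error 1.48, edgeR adjusted p = 0.587), 1.07 for Mup6 (1.04), 0.27 for Esp18 (0.69), 0.13 for Esp4 (0.34) and −0.82 for Mup5 (0.65, edgeR adjusted p = 0.629). For the Esp genes the mean CPM lay the other way, at 17.3 in male and 20.9 in female glands for Esp4 and at 44.4 and 45.6 for Esp18, so that no direction is read from them. Mup5 means were 250 ± 163 CPM in male and 599 ± 328 CPM in female control glands (SD, n = 6 each, exact permutation p = 0.0455), and Mup6 means were 14.2 ± 20.01 CPM in 6 male and 41.7 ± 24.9 CPM in 8 female double-mutant glands (exact permutation p = 0.0493). Without the 2 libraries that went against their sex labels the Mup6 means were 16.6 ± 21.3 CPM in 5 male and 47.0 ± 21.4 CPM in 7 female glands (exact permutation p = 0.0404). Of the 35 permutation tests of single genes, over 7 comparisons, these 2 and the Esp4 and Mup6 tests of stage were the 4 with p under 0.05 before any adjustment, and in all 4 the groups overlapped. In edgeR at an unadjusted p under 0.05, 1 of the 5 genes passed by genotype at P90 (23.5% of all genes did), 2 by stage in controls (22.7%), 1 by stage in double mutants (5.95%), 1 in the interaction with stage (5.50%) and 0 in the other 5 comparisons (2.17 to 37.3%), and DESeq2 called Mup6 by stage in controls and 0 genes of the 5 in the others.

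The level within a population separates, in part, the amount per cell from the number of cells. For each gene the population with the highest pooled level, among those with at least 10 cells in at least 4 glands of each genotype, was compared between genotypes by edgeR over all genes of that population. Esp4 in the cluster led by Ltf and Clu was the 1 member called, beside 4.96% of 1089 genes. It averaged 608 ± 373 CPM in 10 control glands (lowest 211, median 489, highest 1402) and 148 ± 139 CPM in 14 double-mutant glands (lowest 9.71, median 105, highest 419), a log2 fold change of −1.96 (standard error 0.42, edgeR adjusted p = 0.00529). The groups overlapped between 211 and 419 CPM. The call held with each of the 24 glands left out in turn, and stood at −1.77 (edgeR adjusted p = 0.0130) without the 2 libraries that went against their sex labels. Within the batches that held both genotypes, with batch as a factor (8 control and 9 double-mutant glands), the log2 fold change was −1.55 (standard error 0.54, edgeR adjusted p = 0.154).

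The make-up of that cluster moved with the genotype. The Slc13a2-led cells were 61.5% of its 218 control cells and 32.7% of its 998 double-mutant cells, and luminal Clu+-like cells were 17.4% and 53.0%. By gland, 30 to 91.4% (median 53.1%) of its cells were Slc13a2-led in 10 control glands and 7.29 to 76.0% (median 30%) in 14 double-mutant glands. Inside the Slc13a2-led cells, which were set apart after the data were seen and are therefore given without a test, Esp4 averaged 947 ± 332 CPM in 5 control glands (614 to 1481) and 375 ± 321 CPM in 13 double-mutant glands (0 to 1299). These ranges overlapped, with double-mutant P40 gland 7 at 1299 CPM. The control glands left out, with fewer than 10 such cells, ran from 490 to 3640 CPM. Among them, control P40 gland 3 and control P90 gland 3 lay below double-mutant P40 gland 3 at 573 CPM. How many of all genes differ as far between the genotypes in these cells was not counted, so no separation of the genotypes is read from these values. The share of Slc13a2-led cells with an Esp4 UMI was 56.7% of 134 control cells and 19.9% of 326 double-mutant cells, at median depths of 1044 and 985 UMIs.

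Esp18 was not called within its population, the 580 basal-like cells, and the wider basal-like group of resolution 0.7 was not compared. In basal-like cells it averaged 1211 ± 1386 CPM in 8 control glands (0 to 4445) and 791 ± 394 CPM in 10 double-mutant glands (0 to 1374), a log2 fold change of −0.52 (standard error 0.45, edgeR adjusted p = 0.784, 0.00% of 897 genes called). In Slc13a2-led cells, without a test, it averaged 1540 ± 1273 CPM in 5 control and 778 ± 1137 CPM in 13 double-mutant glands, with double-mutant P90 gland 7 the highest of all at 4204 CPM. In the striated-duct cells, ductal Klk1+-like, the means were 283 ± 512 CPM in 12 control and 171 ± 170 CPM in 14 double-mutant glands.

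Within luminal Dcpp1+-like cells both Mup genes stayed high in either genotype. Mup4 averaged 1873 ± 732 CPM in 5 control glands (733 to 2677) and 1037 ± 790 CPM in 7 double-mutant glands (174 to 2670), a log2 fold change of −0.90 (standard error 0.39, unadjusted p = 0.0268, edgeR adjusted p = 0.626). Mup6 averaged 432 ± 111 CPM (314 to 552) and 338 ± 122 CPM (110 to 465), a log2 fold change of −0.57 (standard error 0.30, edgeR adjusted p = 0.888). Neither passed, in a comparison that called 0.531% of 2827 genes. The lowest of the 7 double-mutant glands for Mup4 was P90 gland 4, with 13 such cells, and for Mup6 it was P90 gland 6.

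**Figure D4:**
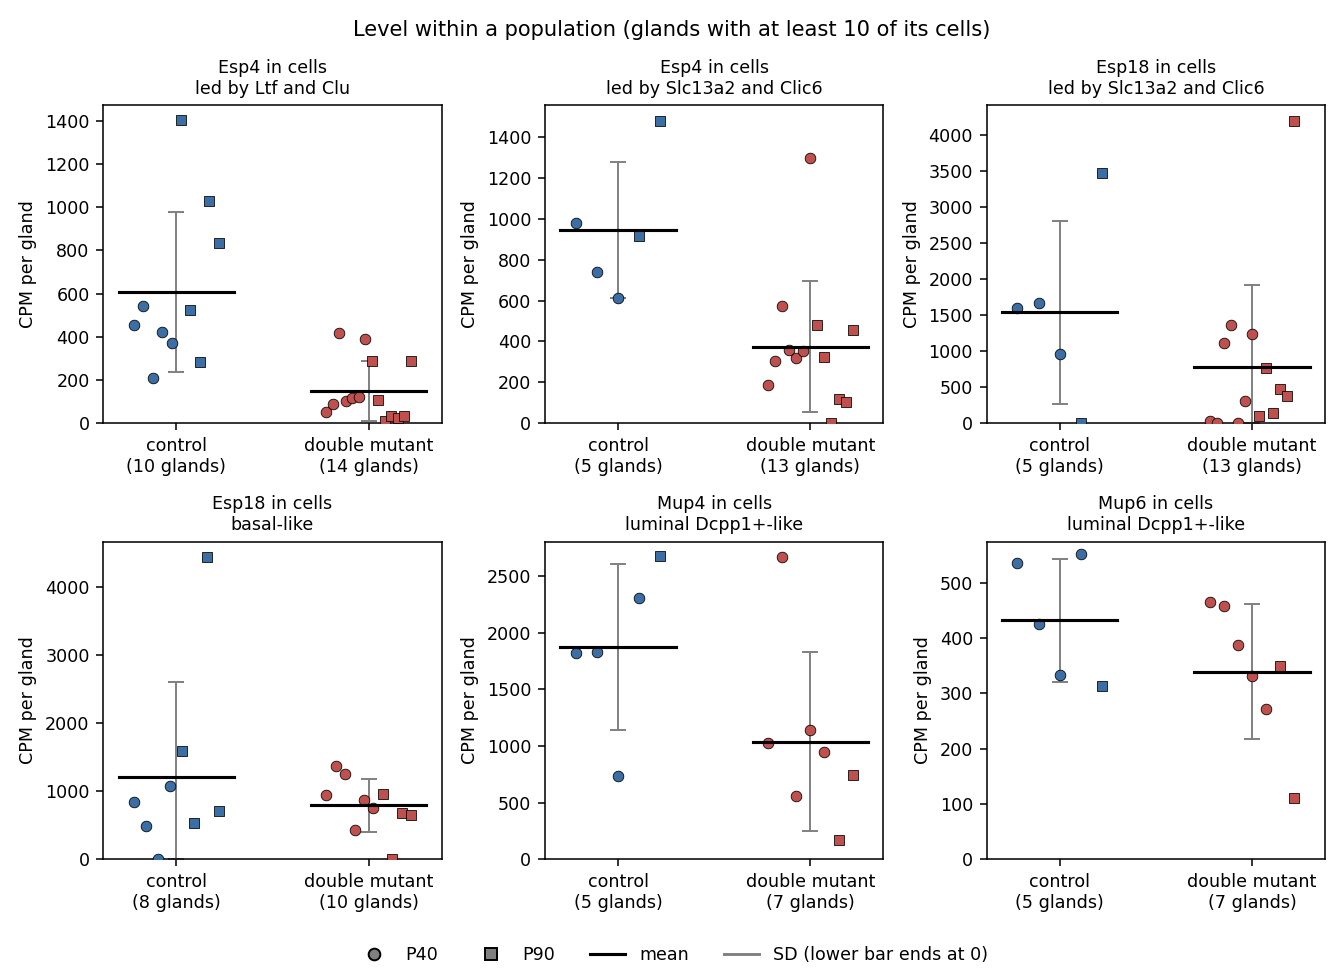
CPM per gland within a population, for glands with at least 10 of its cells, by genotype (circles P40, squares P90), with black lines for means and grey bars for SD. Esp4 in the cluster led by Ltf and Clu averages 608 CPM in controls and 148 CPM in double mutants, the panels of basal-like and luminal Dcpp1+-like cells show no called difference, and the 2 panels of Slc13a2-led cells have no test.

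Mup5 in the cluster led by Gm12873 was not called (log2 fold change 0.68, standard error 1.88, edgeR adjusted p = 0.974, 0.822% of 1095 genes called). In acinar-like cells, which held the largest share of its UMIs, its levels are described gland by gland. Control glands had 342 to 1665 CPM at P40 and 25.8 to 771 CPM at P90. Double-mutant glands had 0 to 1970 CPM at P40 (n = 6) and 0 to 11540 CPM at P90 (n = 7). The 3 P90 glands 7, 1 and 4 reached 11540, 10341 and 7946 CPM, the last with 14 acinar-like cells, and the other 4 were at or below 311 CPM. These 3 came from 3 different batches and included both sexes. The share of acinar-like cells with a Mup5 UMI was 41.4 to 58.6% in P40 controls and 3.25 to 31.0% in P90 controls. It reached 88.6% in double-mutant P90 gland 7. The control shares did not overlap between stages, but the CPM did. These groups also differ in batch and depth. Median UMIs per cell over whole glands were 1514 to 4671 in P40 and 843 to 2431 in P90 controls. With cells thinned to equal depth, shares over all cells of a gland overlapped, at 4.56 to 13.7% and 0.391 to 7.98%. The part of depth in acinar-like cells was not tested, and how many of all genes separate as far was not counted.

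**Figure D5:**
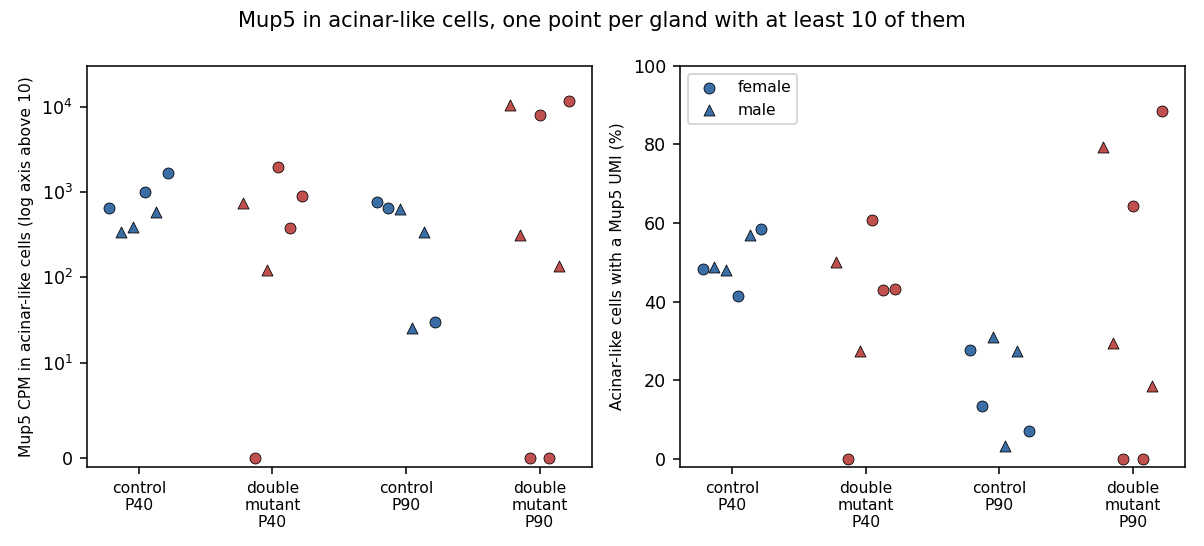
Mup5 in acinar-like cells per gland with at least 10 of them, as CPM (left, logarithmic above 10) and as the percent of these cells with a UMI (right), by genotype and stage (circles female, triangles male, by label). The 3 highest double-mutant P90 glands lie at 7946 to 11540 CPM, above the highest control gland at 1665 CPM, and the other 4 at or below 311 CPM.

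In bulk RNA-seq, which counts reads of undissociated glands, Esp4, Esp18 and Mup5 had over 100 reads in each library, and Mup4 and Mup6 had 2 or fewer. The libraries held 34515744 (control) and 34729551 (double-mutant) counted reads, with 1 library of each genotype at different ages, so that no test was made and the 95% Poisson intervals cover counting error only. Esp4 had 267 reads (236 to 301) in the control and 137 (115 to 162) in the double-mutant library, and Esp18 had 308 (275 to 344) and 179 (154 to 207). Scaled by length these are 12.3 and 6.35 transcripts-per-million (TPM) units for Esp4 and 6.23 and 3.65 TPM for Esp18, ratios of 0.518 and 0.586. Mup5 had 11745 and 16555 reads, 323 and 459 TPM, a ratio of 1.42. Per length, Mup5 was the highest of the 5 in both libraries and Esp4 was above Esp18.

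Mup4 had 0 reads in the control library, which allows up to 0.0869 CPM, and 1 in the double-mutant library, and Mup6 had 2 in each. Dcpp1, the marker of the cells that held Mup4 and Mup6, had 253 and 177 reads, 7.33 and 5.10 CPM. In the pooled Drop-seq glands Dcpp1 was at 27320 CPM in controls and 23345 CPM in double mutants, in another assay that counts UMIs of sorted cells. That pool mixes unlike glands. The luminal Dcpp1+ markers summed to between 29.4 and 223022 CPM in single Drop-seq glands and to between 22.2 and 2804 CPM in the 4 CITE-seq glands at P70. Whether the 2 bulk glands were poor in these cells was not tested. Of 14 Esp and 21 Mup genes in the bulk tables, 3 Esp genes (Esp4, Esp18 and Esp8) and 1 Mup gene (Mup5) had at least 10 reads in a library. Esp8 had 623 and 1104 reads (17.6 and 31.4 TPM).

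CITE-seq RNA gave 4 more glands at P70, described without a test as they were measured at 2 glands a genotype. Esp4 was at 24.0 and 29.5 CPM in the control and 9.98 and 11.9 CPM in the double-mutant glands. The controls were 1 male and 1 female gland and both double-mutant glands were female, so that sex and genotype cannot be fully told apart. Esp18 was at 61.2 and 91.6 CPM in controls and 23.6 and 0 CPM (up to 4.48 allowed) in double mutants. Mup4 (1.72 to 7.26 CPM) and Mup6 (0 to 3.43 CPM) were low in all 4 glands, and Mup5 was at 161 and 99.3 CPM in controls and 339 and 11.9 CPM in double mutants. When these cells were grouped on their own, Esp4 was highest in a cluster led by Ltf and Smgc (355 CPM, 16.1% of 217 cells) and Esp18 in 55 cells led by Pla2g2a and Gp2 (1151 CPM, 45.5% of cells).

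Related secreted proteins were counted beside the 5 genes. Of the Esp family 10 genes had a UMI and 3 could be tested, and of the Mup family 12 and 3, and 0 passed in any of the 9 comparisons of whole glands. Of the 4 other lipocalins with a UMI, both that could be tested, Apod, a lipid carrier of fibroblasts, and Lcn2, an iron-siderophore carrier, were higher in double mutants over all glands, where 22.0% of all genes passed in either direction. Of 49 androgen-binding protein genes (Scgb1b and Scgb2b, salivary proteins of the secretoglobin family), 23 were tested by genotype and 1, Scgb2b20, was higher in double mutants. By stage in controls, where 10.9% of all genes passed and batch moves with stage, 7 of 21 were higher at P90 than at P40.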

How the data were processed

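Single cells of dissociated submandibular glands, sorted as live cells and fixed in methanol, were profiled by Drop-seq, and 4 further glands by CITE-seq. The authors aligned reads with STAR to mm10, counted UMIs per gene and cell with Drop-seq tools and GENCODE annotation, and chose cell barcodes at the knee of the read distribution. The deposited single-cell tables hold these raw UMI counts. The deposited bulk tables hold raw read counts per gene by featureCounts, from Trizol RNA and a stranded mRNA kit. The antibody-tag tables were not used here.

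Cells with at least 100 genes and under 15% mitochondrial UMIs were kept (at most 2500 genes in CITE-seq). No doublet caller was run. Counts were summed per gland and tested with edgeR 4.0.16 (R 4.3.3; TMM, quasi-likelihood, default filter on low counts, adjusted p over all genes), with DESeq2 1.42.0 as an alternative, and mean CPM with two-sided permutation tests (scipy 1.17.1; exact where a group had fewer than 10 glands, otherwise 100000 resamples). Cells were clustered with scanpy 1.11.5 (Leiden resolution 1.0, 2000 variable genes, 30 principal components, 20 neighbors), without Esp and Mup genes. A cluster was named from at least 3 markers. The fits were tested on simulated data. The 5 genes and the gene lists were chosen with earlier results of these data known. Genes named beside the 5 are markers, the other members of the 2 families, lipocalins and androgen-binding proteins, and the 3 genes most like each of the 5. Labels give separate glands but not whether 2 glands came from 1 mouse, so that p-values measure the spread between glands. CPM from 0 UMIs allows up to 3 counts. Alternatives were other scaling and tools, no filter, replicate block, batch terms, thinning, all barcodes and leaving out glands.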

Additional observations from a re-analysis of the deposited data

Results flagged for a closer look

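In 20 groups of 6 or 7 glands, 4 for each gene, the gap between the extreme gland and the next was compared with the range of the group (Dixon's 95% critical value). Chance exceeds this value in about 1 in 20 groups of normally distributed values. The rate was not checked for skewed CPM values, such as those of Mup4 in P90 controls (73.0 ± 155 CPM, SD). The critical value was exceeded in 3 groups. Mup4 was at 388 CPM in control P90 gland 3, against 18.8 CPM in the next P90 control. Mup6 was at 46.4 CPM in the same gland, against 9.38 CPM in the next. This gland was the P90 control with at least 10 luminal Dcpp1+-like cells, 31 of them, which held 61.5% of its Mup4 UMIs. Mup4 and Mup6 followed each other over the 26 glands (Spearman rho 0.91), so their flags are not independent. Mup5 was at 8192 CPM in double-mutant P90 gland 7, against 3469 CPM in the next. In none of the 10 interaction tests did the effect of genotype on one of the 5 genes differ between stages or sexes at an edgeR adjusted p of 0.05.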

How the results depend on the processing

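Of the 5 genes, 0 passed in any of the 9 comparisons of whole glands, and most alternatives kept that. Without the filter on low counts, 1 passed by genotype over all glands (Esp18), 3 at P40 (Mup4, Mup5 and Mup6), 3 at P90 (Esp18, Esp4 and Mup5), 4 by stage in controls (Esp4 and the 3 Mup genes), 3 by stage in double mutants (the Mup genes), 2 in the interaction with stage (Mup5 and Mup6), 3 by sex in controls (the Mup genes) and 2 in the interaction with sex (Mup4 and Mup6). Calls over all genes rose with them, from 26 to 1657 at P40, from 446 to 1430 at P90 and from 988 to 2235 by stage in controls. The log2 values hardly moved, but the standard errors shrank. Mup6 by stage in controls was −3.61 (standard error 0.25) without the filter and −3.49 (1.09) with it. Mup4 at P40 was −1.57 (0.31) without it and −1.55 (1.17) with it. The glands overlapped in both comparisons, so the calls without the filter are not read as differences. By stage in controls, 1 passed in DESeq2 (Mup6, −3.83, DESeq2 adjusted p = 0.00946) and 1 with glands thinned to 650301 UMIs (Mup6, −3.42, edgeR adjusted p = 0.0404). With 1 gland left out, 0 to 1 passed at P90 (Esp4 at −1.58 without double-mutant P90 gland 1, edgeR adjusted p = 0.0351) and 0 to 3 by stage in controls. Esp4 in the cluster led by Ltf and Clu was −1.55 (edgeR adjusted p = 0.154) within batches that held both genotypes, a fit chosen after seeing the data that could not be made for the Gm12873-led cells. The cause was not tested. At a clustering resolution of 0.7, 1 cluster of 2045 cells had Gm12873, Ltf and Clu among its leading genes. The genotype comparison of Esp4 was not repeated in it, so the call rests on 1 cluster boundary. Over all genes, the calls with 1 gland left out ran from 7 to 551 at P40 (26 with all glands), from 206 to 1651 at P90 (446) and from 1663 to 3331 by genotype over all glands (2308), the last falling to 300 with batch as a factor.

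No replicate number marks a shared mouse or day in the labels. Same-numbered P40 glands correlated at 0.0293 to 0.534 (5 of 6 pairs over 0.1, 4 best with their own number) and P90 glands at −0.347 to −0.0265, so the numbers were not taken as pairs. With the replicate block 3 genes passed at P40, Mup4 (−1.45, edgeR adjusted p = 0.0487), Mup5 (−2.74, edgeR adjusted p = 0.0271) and Mup6 (−1.60, edgeR adjusted p = 0.0189), while 765 of all genes passed there against 26 without the block. Under the replicate block these log2 values, none of which passed, changed sign: Mup5 by genotype −1.73 and at P90 −0.72, Esp18 by stage in controls −0.075, Mup4 and Mup6 by sex in controls −0.17 and −0.27, Mup5 by sex in double mutants 1.17 and Esp4 in the interaction with sex −0.22.

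Other changes of sign were in values that did not pass. Mup5 by genotype was −0.83 within batches that held both genotypes, and Esp18 by stage in double mutants 0.34 within batches that held both stages. Mup4 at P90 was 0.031 with DESeq2 size factors, 0.13 in DESeq2 and 0.10 without the 2 libraries that went against their sex labels. With thinned glands, Esp18 and Esp4 by sex in controls were −0.18 and −0.047, and Esp18 in the interaction with sex was 0.52. With 1 gland left out, Esp4 at P40 ran from −0.23 to 0.14, Mup4 at P90 from −0.71 to 2.10, Mup5 in the Gm12873-led cells from −0.19 to 1.74, Mup5 by genotype from −0.075 to 0.82, Esp18 by sex in controls from −0.79 to 0.49 and in double mutants from −0.24 to 0.42, Esp4 by sex in controls from −0.16 to 0.29, and Esp18 by stage from −0.65 to 0.86 in controls and −0.53 to 0.11 in double mutants. Thinning to 500 UMIs a cell moved the median share of cells with a UMI from 2.49% to 0.399% for Mup6, from 3.48% to 1.24% for Mup4, from 2.26% to 0.864% for Esp4 and from 2.78% to 1.91% for Esp18.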
